A study of Saccharomyces cerevisiae with 6 samples.

Results

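The SNO and SNZ genes of the budding yeast Saccharomyces cerevisiae form 3 pairs, SNO1/SNZ1, SNO2/SNZ2 and SNO3/SNZ3, whose products act in the synthesis of vitamin B6. The 6 genes were taken by name, as the probes whose array annotation is the reading frame of each gene: YMR095C (SNO1), YMR096W (SNZ1), YNL334C (SNO2), YNL333W (SNZ2), YFL060C (SNO3) and YFL059W (SNZ3). Each had 1 probe, so that 6 of 6225 gene identifiers on the array are described, and all 6 were among the 5944 that entered the test. The genes were chosen with their change under glycolaldehyde already known. Their own values are therefore a description, without p-values. The fit over all genes marks some of them as changed, and that count is given only beside the share of all genes so marked.

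The glycolaldehyde group had 3 samples of strain BY4743 given 10 mM of this small reactive aldehyde for 4 h, and the untreated group had 3 samples of the same strain without it. Both groups grew at 30 °C without shaking in synthetic medium with 2% glucose. As worded, the label on growth leaves unclear whether the overnight culture also held the aldehyde. There were 3 independent starter cultures, and 1 one-colour Agilent array was used per sample. The label for ploidy reads haploid, whereas BY4743 is known as a diploid strain, and the growth label reads anaerobic where the protocol says static. URA3, LEU2 and HIS3, which are deleted in this strain background, were well above background on 0 of the 6 arrays, while mating-type genes of both kinds (STE2, MFA1, STE3 and MF(ALPHA)1) were above it on all 6. So were the haploid-specific genes RME1, STE5 and GPA1. As 94.8% to 97.0% of all probes pass this flag on an array, ploidy was not judged from it.

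The value table and the scanner files assign arrays to samples differently. For 3 samples the column of the authors' value table equals the scanner file attached to another sample, and 2 arrays change group between the records. Values below follow the value table, by sample title, and this choice was made with both results known. The titles and treatment entries set the direction of every difference, while the free-text descriptions of all 6 samples name the opposite treatment. With scanner files as attached, limma called 0 of 5924 genes (smallest adjusted p = 0.919, 134 genes at an unadjusted p under 0.05). For that reason the members' changes, the main genes of each list and the list counts that differ are also given for the 4 arrays that both records place in the same group. By the value table these are untreated 1 and 2 and glycolaldehyde 2, scanned on day 1, and glycolaldehyde 3, scanned on day 2. Scan day is therefore not balanced between the groups in this set. Of 6256 probes, 5929 to 6070 (94.8% to 97.0%) passed the background flag on an array, and the number of arrays limits the precision.

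Snz proteins are the synthase subunits and Sno proteins the glutaminase subunits of the enzyme that makes pyridoxal 5-phosphate, the active form of vitamin B6. The Sno subunit releases ammonia from glutamine, and the Snz subunit joins it to sugar phosphates to build the pyridine ring. Pyridoxal phosphate is the cofactor of aminotransferases and of many other enzymes of amino acid metabolism. In each pair the SNO and SNZ genes lie next to each other and are transcribed away from a shared promoter. SNZ1 is known as a target of the amino acid regulator Gcn4 and as a gene of stationary phase cells, while pairs 2 and 3 lie near chromosome ends beside THI5-type genes of thiamine synthesis and are known to be expressed when thiamine is short. SNZ2 and SNZ3 are near-identical, as are SNO2 and SNO3, so probes for these copies may share signal. Because probe sequences were not used here, that signal was not separated.

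The 3 pairs did not move alike under glycolaldehyde. Both genes of pair 1 fell steeply, SNZ2 and SNZ3 rose by a small amount, and SNO2 and SNO3 had log2 changes of -0.13 and -0.10. In limma at an adjusted p under 0.05, 2 of the 6 genes fell (SNO1 and SNZ1), 2 rose (SNZ2 and SNZ3) and 2 did not pass (SNO2 and SNO3). SNZ2 and SNZ3 may share signal, as may SNO2 and SNO3, so the 6 may not all be separate measurements. Over all genes tested, 53.1% were called, 29.6% as higher and 23.5% as lower with glycolaldehyde, and nothing is read from the members' count because they were chosen on this contrast. On 5 of the 6 genes the groups did not overlap (glycolaldehyde below for SNZ1, SNO1 and SNO2, above for SNZ2 and SNZ3), where 60.9% of all genes tested had no overlap, 27.1% with glycolaldehyde below and 33.8% above. The same 2 falls and 2 rises were counted in the 4 agreed arrays, where 48.4% of all genes were called. With quantile normalization, median scaling or scan day as a block, SNO2 or SNO3 was called as lower as well. That these genes did not pass therefore depended on the setting.

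SNZ1, the synthase subunit gene of pair 1, had scaled intensities of 2688, 2899 and 3039.7 in the 3 glycolaldehyde samples, against 12171, 13272 and 12335 in the 3 untreated samples. A scaled intensity is the value-table signal after each array was brought to the same 75th percentile. All glycolaldehyde arrays lay far below all untreated arrays, with means of 2876 ± 177 and 12593 ± 594 (SD, n = 3 each). The log2 change was -2.13 ± 0.07 (moderated SE), which is 4.38-fold lower, and it ranked 10 among the falls of all genes tested. In the 4 agreed arrays it was -2.10. Within scan day 1, with 2 arrays a group, it was -2.19, and within scan day 2, with 1 array a group, it was -2.02.

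SNO1, its glutaminase partner, had scaled intensities of 78.4, 87.4 and 77.0 with glycolaldehyde, against 546, 564 and 529 in untreated cells. The groups were again far apart, at 81.0 ± 5.65 and 546 ± 17.8 (SD, n = 3 each). The log2 change was -2.76 ± 0.07, or 6.76-fold lower, which ranked 2 among all falls. SNO1 and SNZ1 were both called and at least 2-fold lower, as were 1.82% of all genes tested. It was -2.76 in the 4 agreed arrays, -2.75 within scan day 1 and -2.78 within scan day 2. The treated SNO1 signal was dim, and its size depended on the background correction: with a normexp correction of the raw spot signal the change was -2.01. The raw spot median of SNO1 ran from 114.5 to 591 over the arrays, where the local background was 25.5 to 29.

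SNO1 fell further than SNZ1 on the deposited signal. The log2 change of SNO1 minus that of SNZ1 was -0.63 ± 0.08 (SE from the arrays, n = 3 per group) and -0.66 in the 4 agreed arrays, and the SNO1-to-SNZ1 ratio was lower on every glycolaldehyde array than on every untreated array. This order did not hold under the normexp correction, where the change was -2.01 ± 0.10 for SNO1 and -2.08 ± 0.07 for SNZ1.

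**Figure D1:**
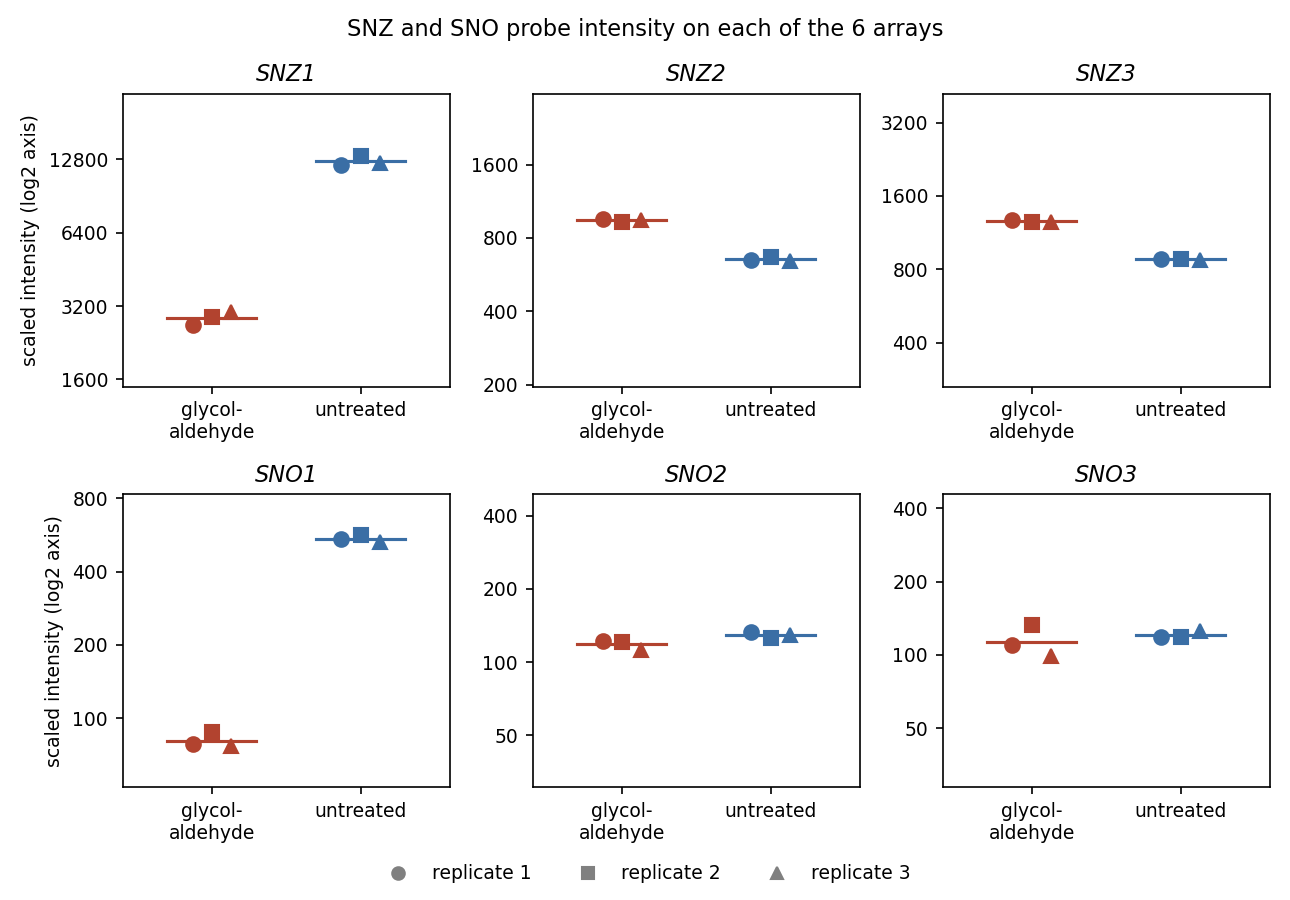
Scaled intensity (log2 axis, the same 16-fold span in each panel) of the 6 SNZ and SNO probes on the glycolaldehyde arrays (red, left) and the untreated arrays (blue, right); symbols mark replicates and lines the mean of the log2 values. SNZ1 and SNO1 are far lower with glycolaldehyde, SNZ2 and SNZ3 are slightly higher, and SNO2 and SNO3 lie close to the untreated level.

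SNZ2, the synthase subunit gene of pair 2, had scaled intensities of 958, 928 and 946 in glycolaldehyde samples and 652, 668 and 642 in untreated samples. Every treated array lay above every untreated array, although the step was far smaller than that of pair 1. Means were 944 ± 15.3 and 654 ± 13.0 (SD, n = 3 each), and the log2 change was 0.53 ± 0.05, or 1.44-fold higher. It was 0.51 in the 4 agreed arrays, 0.51 within scan day 1 and 0.56 within scan day 2.

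SNZ3, the synthase subunit gene of pair 3, gave nearly the same figures. Its scaled intensities were 1269, 1256 and 1255 with glycolaldehyde, against 881, 883 and 875 without it, so the groups did not overlap. Means were 1260.3 ± 7.97 and 879.6 ± 4.18 (SD, n = 3 each), with a log2 change of 0.52 ± 0.05, or 1.43-fold higher. The changes of SNZ2 and SNZ3 differed by 0.01 ± 0.02 on the log2 scale, and the SNZ2-to-SNZ3 ratio overlapped between groups. Signal shared between these near-identical copies was not separated, so their rises may not be separate measurements.

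SNZ1 moved against its paralogs. Its log2 change minus that of SNZ2 was -2.66 ± 0.06, and minus that of SNZ3 it was -2.65 ± 0.07 (SE from the arrays), with -2.60 and -2.61 in the 4 agreed arrays, and the ratio of SNZ1 to each copy was lower on all 3 glycolaldehyde arrays than on any untreated array. As the members were chosen on this contrast, these differences are given without a test. They may not be separate measurements, because signal shared by SNZ2 and SNZ3 was not separated.

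The glutaminase subunit genes of pairs 2 and 3 did not share the rise of their partners. SNO2 had scaled intensities of 122, 121 and 113 with glycolaldehyde and 134, 126 and 129 without it, which are separate groups a small step apart. Its log2 change was -0.13 ± 0.06, and -0.15 in the 4 agreed arrays. The change of SNZ2 exceeded that of SNO2 by 0.66 ± 0.05 on the log2 scale (0.65 in the 4 agreed arrays), and the SNZ2-to-SNO2 ratio was higher on every glycolaldehyde array. The size of the SNO2 change followed the scaling, at -0.22 with quantile normalization and -0.16 with median scaling. SNO2 and SNO3 were dim, as treated SNO1 was. With normexp the change of SNO2 was -0.07, where that of SNZ2 was 0.50.

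SNO3 had scaled intensities of 110.0, 133 and 98.7 with glycolaldehyde, against 119, 119 and 125 in untreated samples, so the groups overlapped. Its log2 change was -0.10 ± 0.10. It was -0.05 in the 4 agreed arrays, 0.03 within scan day 1, -0.34 within scan day 2 and -0.05 with normexp. The change of SNZ3 exceeded it by 0.62 ± 0.13 on the log2 scale (0.56 in the 4 agreed arrays), with no overlap of the ratio between groups.

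The 7 spots of the SNO3 probe differed most on 2 arrays. On glycolaldehyde replicate 2 the highest of its 7 spots read 253 against a mean of 116 in unscaled signal, and on untreated replicate 3 the highest read 303 against a mean of 155. On each of these arrays 1 spot carried the scanner software's outlier flag, and the coefficient of variation over spots was 53.1% and 42.5%. Without flagged spots the scaled intensities of SNO3 were 109, 106 and 98.0 with glycolaldehyde and 118, 117 and 105 without it. The log2 change was then -0.12 over all arrays, -0.13 within scan day 1 and -0.10 within scan day 2, and the groups still overlapped.

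For the other members the spots agreed more closely. The coefficient of variation over 7 spots was between 1.69% and 4.95% for SNZ1, 2.52% and 4.52% for SNZ2, and 3.27% and 5.50% for SNZ3. It was higher for the dimmer SNO1 and SNO2, at 2.97% to 9.41% and 6.47% to 11.1%. All 42 spots of each member over the 6 arrays were well above background. The raw spot medians of SNO2 and SNO3 lay between 142 and 193.5 where the local background was 25.5 to 30.

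**Figure D2:**
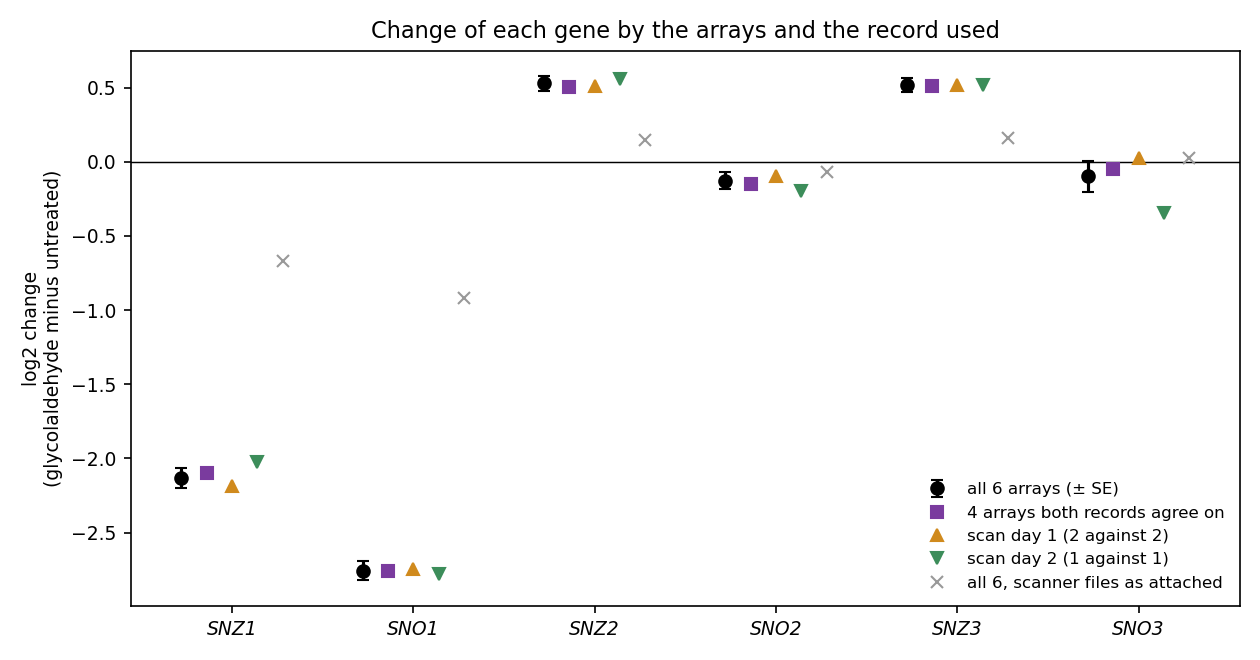
Log2 change, glycolaldehyde minus untreated, of each gene over all 6 arrays (black, ± moderated SE), over the 4 arrays both records agree on, within each scan day, and with scanner files as attached (grey crosses). The first 4 sets lie close together for 5 genes and are spread for SNO3, and the grey crosses lie nearer to 0 than the black points for all 6 genes.

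Of 4 genes that interconvert or import vitamin B6, 2 fell, 0 rose and 2 missed the threshold; the median log2 change was -0.16, where the median of all genes tested was 0.03. TPN1, the plasma membrane importer of pyridoxine, had scaled intensities of 30656, 29251 and 30131 with glycolaldehyde, against 48426, 48786 and 50512 without it. It fell by 0.71 ± 0.05 on the log2 scale (limma adjusted p = 4.2e-05, n = 3 per group), lower in 3 of 3 treated samples than in any untreated sample. PDX3, the oxidase that makes pyridoxal phosphate from its pyridoxine and pyridoxamine forms, fell by 0.27 ± 0.05 (limma adjusted p = 0.0027). The putative pyridoxal kinase gene BUD16 and its relative BUD17 had log2 changes of -0.06 ± 0.08 and 0.00 ± 0.06 and did not pass (limma adjusted p = 0.585 and 0.978). In the 4 agreed arrays the count was likewise 2 falls and 0 rises, with -0.71 for TPN1 and -0.26 for PDX3. Over all genes tested 53.1% were called and 23.5% fell, so 2 of 4 is near the share of all genes called.

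Among 37 listed enzymes that carry pyridoxal phosphate, 28 fell, 2 rose and 7 missed the threshold, and the median log2 change was -0.51. The list was chosen with earlier results of these data known, so its share is not read as that of all such enzymes. Over all genes tested 23.5% fell. The falls were largest for SHM2, the cytosolic serine hydroxymethyltransferase, at -2.56 ± 0.08, and for GCV2, the decarboxylase subunit of the glycine cleavage complex, at -2.52 ± 0.12. STR3, a cystathionine beta-lyase, and HIS5, the aminotransferase of histidine synthesis, had changes of -1.36 ± 0.11 and -1.35 ± 0.11 (largest limma adjusted p of these 4 genes 8e-05). DPL1, a lyase of sphingolipid breakdown, rose by 0.51 ± 0.06 (limma adjusted p = 0.00039), as did NFS1, a cysteine desulfurase, by 0.21 ± 0.06 (limma adjusted p = 0.027). In the 4 agreed arrays SHM2 changed by -2.52, GCV2 by -2.37, STR3 by -1.36, HIS5 by -1.48 and DPL1 by 0.47, and 25 enzymes fell. The count of rises was 1 in the 4 agreed arrays and without untreated replicate 1 or 3 or glycolaldehyde replicate 2 or 3.

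The genes directly beside pairs 2 and 3 are near-identical copies, while the genes farther out differ in part. Neighbours were compared with the pairs in gene order. The 2 protein-coding genes on each side of each pair were taken from the RefSeq gene table (assembly R64). Of these 12 genes 11 were tested, 8 rose, 1 fell and 2 missed the threshold, and the median log2 change was 0.50. Signal shared between near-identical copies among these neighbours was not separated, so the 11 may not all be separate measurements. Over all genes tested 29.6% rose. THI12, next to SNZ2, and THI5, next to SNZ3, are near-identical genes for the synthesis of the thiamine pyrimidine. THI12 rose by 0.62 ± 0.08 and THI5 by 0.65 ± 0.09 (limma adjusted p = 0.00056 and 0.00061). THI5 had scaled intensities of 900.4, 869.7 and 996 with glycolaldehyde and 553, 559 and 654 without it, and the groups did not overlap.

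On the other side, YNL335W next to SNO2 and YFL061W next to SNO3 are near-identical copies named DDI2 and DDI3 in that table, which encode cyanamide hydratases. They rose by 1.00 ± 0.06 and 1.01 ± 0.06 (limma adjusted p = 1.5e-05 and 1.6e-05), which is at least 2-fold, as in 1.36% of all genes tested. Both lie at that bound and were under it with quantile normalization (0.97 and 0.98), median scaling (0.97 and 0.99) and normexp (0.90 and 0.92). In the 4 agreed arrays DDI2 changed by 1.02, DDI3 by 0.98, THI12 by 0.71 and THI5 by 0.74. SNO2 lay between DDI2 and SNZ2, and SNO3 between DDI3 and SNZ3, all of which rose. Farther out AAD14, a putative aryl-alcohol dehydrogenase, rose by 0.54 ± 0.09, AGP3, an amino acid permease, by 0.26 ± 0.06, and COS4 by 0.30 ± 0.06 (limma adjusted p at most 0.011). COS1 had a change of 0.13 ± 0.06 and did not pass (limma adjusted p = 0.114). The COS and AAD genes also belong to families of similar copies.

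The neighbours of pair 1 did not follow its fall in size. MTG1, a GTPase gene of the mitochondrial ribosome next to SNZ1, rose by 0.50 ± 0.05 (limma adjusted p = 0.00025), and ATP25 beyond it had a change of 0.07 ± 0.05 (limma adjusted p = 0.312). UTP15 of the small-subunit processome, on the SNO1 side, fell by 0.33 ± 0.06 (limma adjusted p = 0.0025). MTG1 changed by 0.50 and UTP15 by -0.36 in the 4 agreed arrays. CTF13, a kinetochore gene between UTP15 and SNO1, was well above background on only 2 of the 6 arrays and was not tested. Its scaled intensities were 19.9, 28.3 and 19.7 with glycolaldehyde and 32.5, 44.5 and 35.7 without it. Without untreated replicate 2 CTF13 was tested and passed, and the neighbours then held 2 falls.

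**Figure D3:**
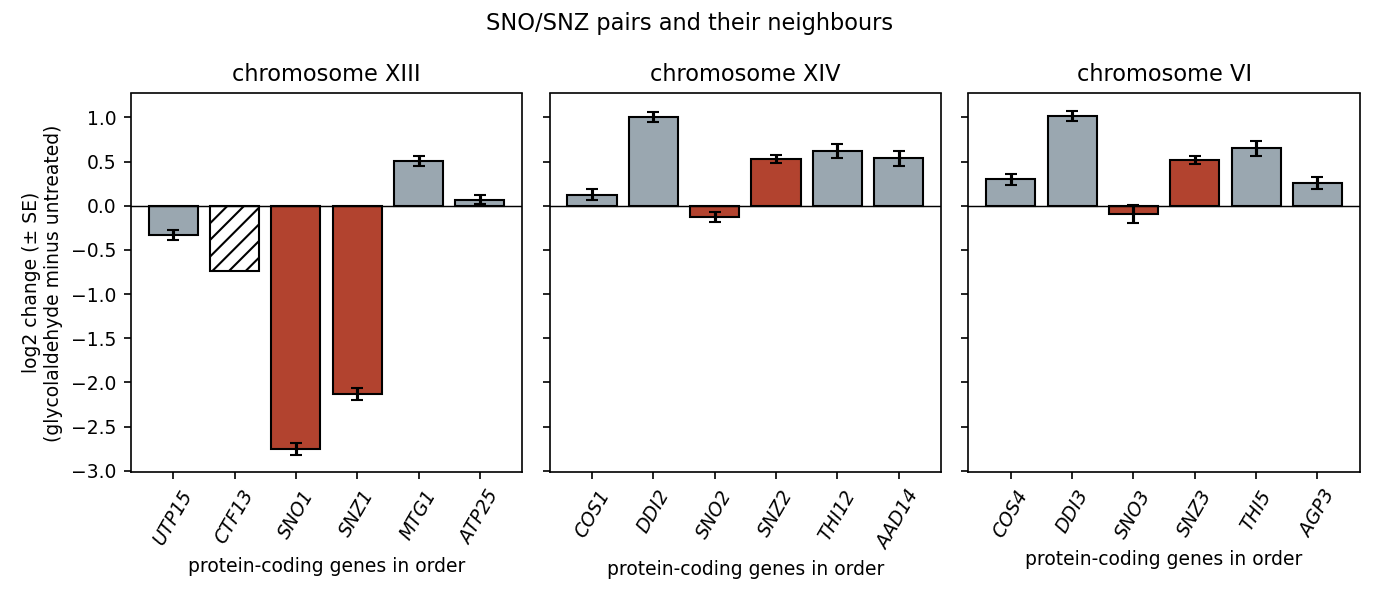
Log2 change (± moderated SE) of each pair (red) and of the 2 protein-coding genes on each side (grey) in chromosomal order, not to scale; the hatched bar is CTF13, which was not tested. SNO1 and SNZ1 fall by over 2 between neighbours with changes from -0.74 to 0.50, and SNO2 and SNO3 lie close to 0 between DDI2 or DDI3 and their SNZ partner.

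Thiamine genes were set beside pairs 2 and 3 because these pairs are known to be expressed with them. Of 18 genes 10 rose, 1 fell and 7 missed the threshold, and the median log2 change was 0.29. That is 61.1% called, where 53.1% of all genes were called and 29.6% rose. The count of rises was also 10 in the 4 agreed arrays. THI13, THI11 and THI5 of the pyrimidine branch had changes of 0.79 ± 0.07, 0.67 ± 0.07 and 0.65 ± 0.09, and PET18 had 0.70 ± 0.06 (largest limma adjusted p of these 4 genes 0.00061). THI13 was dim, and with normexp its change was 0.37. THI6, which joins the parts of thiamine, rose by 0.31 ± 0.06 (limma adjusted p = 0.0027). The changes of SNZ2 and SNZ3 were 0.53 and 0.52. The transporter gene THI7 did not pass (0.04 ± 0.10, limma adjusted p = 0.742). Signal shared among THI5, THI11, THI12 and THI13 was not separated.

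Regulators of amino acid, purine and thiamine genes were set beside the pairs as well. Of 7 genes 1 rose, 2 fell and 4 missed the threshold, and the median log2 change was -0.12. That is 42.9% called, against 53.1% of all genes. Within scan day 1, where 70% of all genes were called, 4 fell. BAS1, which encodes an activator of purine and histidine genes, fell by 0.63 ± 0.08 (limma adjusted p = 0.00041), and GCN2, the kinase upstream of Gcn4, rose by 0.33 ± 0.07 (limma adjusted p = 0.0042). GCN4 itself, whose output is set mostly by translation, had a change of -0.21 ± 0.08 and did not pass (limma adjusted p = 0.0508). GCN4 passed in the 4 agreed arrays, at -0.30 (limma adjusted p = 0.0207). The same held with replicate number, scan day or slide as a block (limma adjusted p = 0.0062, 0.0020 and 0.0147). GCN4 also passed with median scaling (-0.24) and without untreated replicate 3. It did not pass with quantile normalization (-0.09), normexp (-0.20) or no filter, or when any other single sample was left out. Its call and its size therefore depended on the setting. PHO2, the partner of Bas1, had a change of 0.02 ± 0.12 (limma adjusted p = 0.907).

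The thiamine regulators THI2 and THI3 had changes of 0.06 ± 0.06 and -0.12 ± 0.05 and did not pass (limma adjusted p = 0.415 and 0.0943). PDC2, an activator of pyruvate decarboxylase and thiamine genes, fell by 0.23 ± 0.07 (limma adjusted p = 0.0215). That call was lost in the 4 agreed arrays (-0.22, adjusted p = 0.0819) and without untreated replicate 1 or 2 or glycolaldehyde replicate 1 or 2. The regulators then held 1 fall, and the thiamine list 0 falls, in each of these 4 cases.

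Other genes known from stationary phase changed in both directions. Of 10 tested 5 rose, 3 fell and 2 missed the threshold, and the median log2 change was 0.12. Over all genes tested 29.6% rose and 23.5% fell. The small heat shock protein genes HSP12 and HSP26 rose by 0.92 ± 0.09 and 0.48 ± 0.06, and SIP18, a hydrophilin gene, by 0.85 ± 0.06 (largest limma adjusted p of these 3 genes 0.0007). SPI1, a cell wall protein gene, fell by 0.57 ± 0.13 (limma adjusted p = 0.008). With the 4 agreed arrays HSP12 changed by 1.03, HSP26 by 0.51, SIP18 by 0.89 and SPI1 by -0.37. SIP18 was dim, and with normexp its change was 0.54. The rises numbered 3 in the 4 agreed arrays and without glycolaldehyde replicate 2. The falls numbered 1 without untreated replicate 1 or glycolaldehyde replicate 1 or 2.

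**Figure D4:**
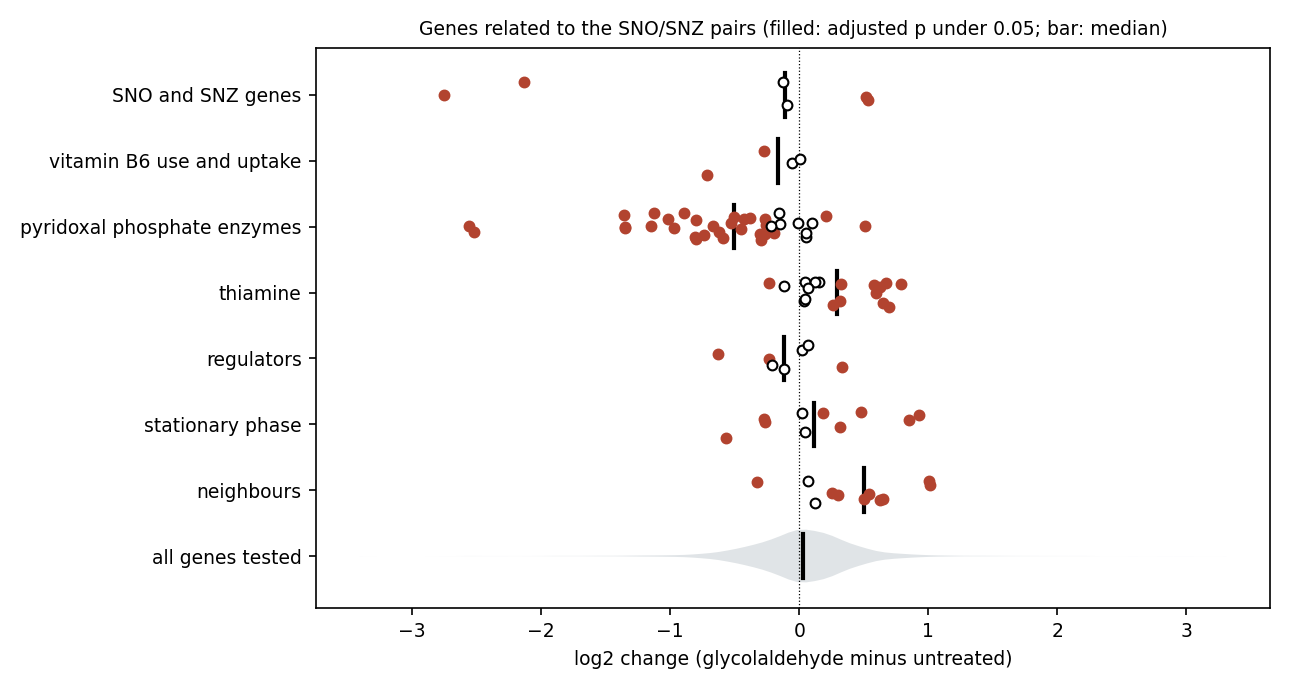
Log2 change of the SNO and SNZ genes and of each list of related genes that was tested (points; filled where the adjusted p was under 0.05), with list medians as bars and the distribution over all 5944 genes in grey. Most listed enzymes of pyridoxal phosphate lie left of 0 (28 of 37 fell) and most called thiamine genes and neighbours lie right of it.

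The genes whose pattern over the 6 arrays was closest to that of each member were found by the Euclidean distance between log2 values centred on each gene's own mean. For SNZ1 the 5 nearest of 5943 genes included ADH5, an alcohol dehydrogenase isozyme (distance 0.101, log2 change -2.13), HIS4 of histidine synthesis (0.201, -2.02), ARG4, argininosuccinate lyase (0.265, -1.94) and PUT4, the proline permease (0.313, -1.89). SNO1 came at rank 32, at a distance of 0.791. With 2 groups this measure rests mostly on the size of the treatment difference.

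For SNO1 the nearest genes were ARG1, argininosuccinate synthetase (0.291, -2.57), GCV1 of the glycine cleavage complex (0.294, -2.53), SHM2 (0.364, -2.56), MEP2, an ammonium permease (0.463, -2.40) and GCV2 (0.573, -2.52). SNZ1 came at rank 9. These ranks rest on the gap in size between SNO1 and SNZ1, which was not seen with normexp. The normexp offset shrinks the change of a dim probe more than that of a bright one. Distances were not computed with that correction.

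The mean of SNZ2, SNZ3, SNO2 and SNO3 was nearest to VMA7, a subunit of the vacuolar ATPase, to NHP10 of the INO80 remodelling complex, and to YGR026W, YKR035C and YMR262W. Distances ran from 0.0223 for VMA7 to 0.0464 for YMR262W, and log2 changes from 0.18 for YKR035C to 0.23 for YGR026W. This mean blends members that rose with members that did not. As a mean of their own, a choice made after the values were seen, SNZ2 and SNZ3 were nearest to THP3 (0.046, log2 change 0.52) and HEM2 (0.0545, 0.55). SNO2 and SNO3 came at ranks 3925 and 4018 of 5942 in that order.

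**Figure D5:**
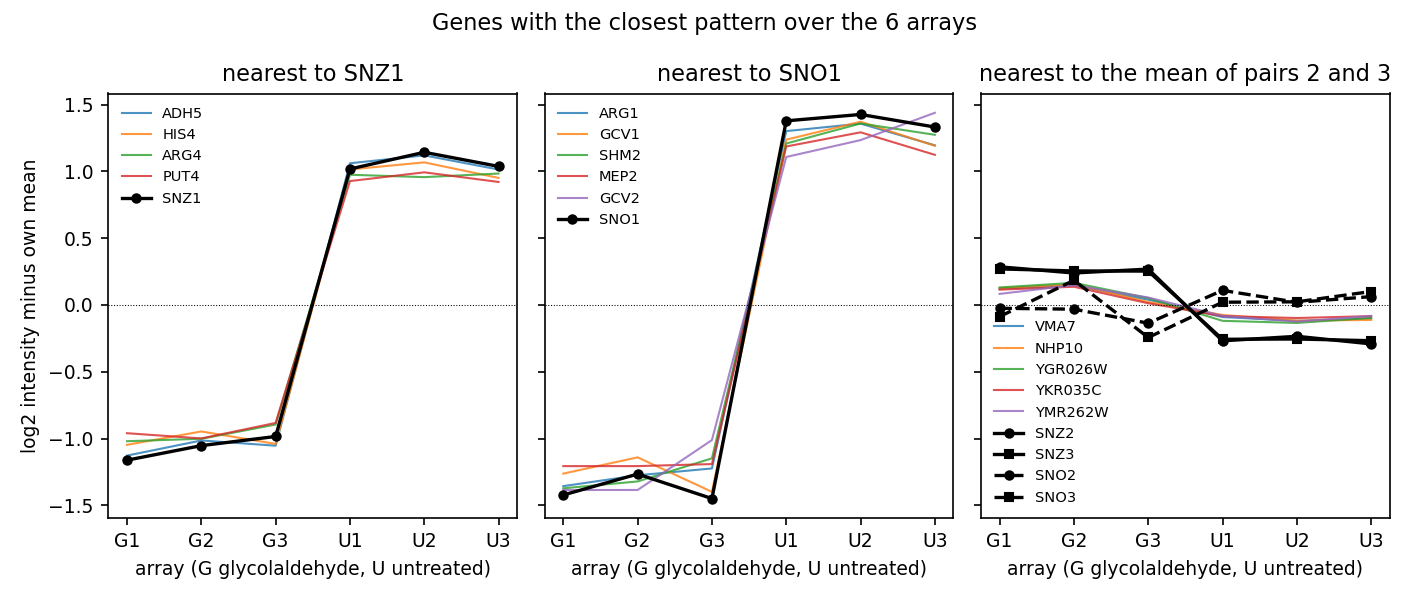
Log2 intensity minus each gene's own mean on the 3 glycolaldehyde arrays (G1 to G3) and the 3 untreated arrays (U1 to U3), for the members (black) and the nearest genes of each pattern that are named in the text (coloured); lines join arrays for legibility only. SNZ1 and SNO1 and their nearest genes are about 2 to 3 log2 units lower with glycolaldehyde, and in the right panel SNZ2 and SNZ3 separate from SNO2 and SNO3.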

How the data were processed

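RNA of 3 glycolaldehyde and 3 untreated samples was measured on one-colour Agilent arrays with 7 spots for each of 6256 probes. The authors' scanner files hold the green processed signal of each spot, a background-subtracted linear intensity per the file headers, and the headers name the build sacCer2. The submitters' processing notes list Feature Extraction 11.0.1.1 and R 3.0.2, with no role stated. The deposited value table holds a linear intensity that equals the mean processed signal of a probe's spots on 1 array (relative tolerance 1e-06), with no scaling between arrays. All its columns have a sample. By the value table, replicates 1 and 2 were scanned on day 1 and replicate 3 on day 2, in both groups. Slide 1 then held untreated 1, slide 2 held untreated 2 and glycolaldehyde 1 and 2, and slide 3 held replicate 3 of both groups. With scanner files as attached, untreated 3 was scanned on day 1 and glycolaldehyde 2 on day 2.

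The log2 value was reduced by the array's 75th percentile. The brightest probe was kept for the 29 identifiers with several. Genes were tested when a share over 0.5 of their spots carried the deposited flag for well above background on all arrays of at least 1 group. Linear models were fitted in limma 3.58.1 (lmFit, eBayes) under R 4.3.3, two-sided, with Benjamini-Hochberg adjustment over all genes, and was tested on simulated data. Of 6225 identifiers 5720 matched the RefSeq table (R64), used for names and gene order. Alternatives were the scanner files as attached, the 4 agreed arrays, spots without outlier flags, other scaling and normexp. They also included no filter, replicate, scan day or slide as a block, and leaving out each sample. Normexp used an offset of 50 on median spot and background intensity, in place of the planned mean signal.

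The replicate numbers are shared, and deviations from group means over 5944 genes correlated with 0.321, 0.401 and 0.621 for same-numbered arrays. By the rule that each of these be over 0.1, the numbers were treated as pairs in the replicate block, with no label that says so. That block was an alternative setting. The main fit, with its SEs, p-values and counts, used no pairing. Other arrays of the same scan day correlated as well (0.538 for glycolaldehyde 2 with untreated 1, 0.239 for glycolaldehyde 1 with untreated 2), and arrays of different days between -0.579 and -0.346, so the numbers were not told apart from scan day.

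The members and lists (vitamin B6 use and uptake, pyridoxal phosphate enzymes, thiamine, regulators, stationary phase, neighbours) were chosen with earlier results of these data known. Named genes are the members, the vitamin B6, regulator and neighbour lists, up to 4 called genes of largest change in each other list with the largest opposite change, and the 5 genes nearest in pattern to SNZ1, to SNO1 and to the mean of the other members, of which 1 is not reported here. NFS1, THI6, THI7, THP3 and HEM2 were named after their values were seen. SPG1 was not on the array. Promoter motifs and probe or gene sequences were not analysed here.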

Additional observations from a re-analysis of the deposited data

How the results depend on the processing

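With scanner files as attached the log2 changes were -0.92 for SNO1, -0.67 for SNZ1, 0.14 for SNZ2, 0.16 for SNZ3 and -0.070 for SNO2, and 0 genes rose and 0 fell over all genes and in every list. SPI1 then changed by 0.081, against -0.57 with the value table, and 38 of the other named genes lost their call. The cause was not tested. In the 4 agreed arrays SNZ3 changed by 0.51, 1 enzyme of pyridoxal phosphate rose, 0 thiamine genes fell and 3 stationary phase genes rose. Quantile normalization gave -0.22 for SNO2, 0.50 for SNZ2 and 2 thiamine genes that fell; median scaling gave 0.50 for SNZ2 and 0.49 for SNZ3. Normexp gave -2.01 for SNO1, -0.073 for SNO2, 0.50 for SNZ2 and 0.50 for SNZ3, with 0 thiamine genes, 1 regulator and 1 stationary phase gene that fell. With no filter 2 neighbours fell, as CTF13 was then tested. With scan day as a block, and within scan day 1, 2 thiamine genes and 4 regulators fell. Within scan day 2 the changes were -0.20 for SNO2, -0.34 for SNO3, -2.02 for SNZ1 and 0.56 for SNZ2. Within slide 2, added after seeing the data, they were -0.048 for SNO2, -2.25 for SNZ1 and 0.50 for SNZ2. The values of SNO3 without flagged spots on fewer arrays were also added after seeing the data; in the 4 agreed arrays that value was -0.21.

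Leaving out each sample in turn gave ranges of -2.81 to -2.72 for SNO1, -2.17 to -2.08 for SNZ1, 0.52 to 0.54 for SNZ2, 0.51 to 0.52 for SNZ3, -0.15 to -0.09 for SNO2 and -0.21 to 0.00 for SNO3. Over all genes 1363 to 1883 rose and 1121 to 1495 fell. The vitamin B6 list kept counts of 0 rises and 2 falls. Enzymes of pyridoxal phosphate had 1 to 2 rises and 24 to 29 falls, thiamine genes 9 to 10 and 0 to 1, regulators 1 to 1 and 1 to 3, stationary phase genes 3 to 5 and 1 to 3, and neighbours 8 to 9 and 1 to 2. With the replicate block 2174 genes rose and 1730 fell, and the SNO and SNZ genes again counted 2 rises and 2 falls; among the named genes the block added the call of GCN4 (adjusted p = 0.0062) and changed no other. The median log2 change over all genes was 0.03, and 0.02, 0.00 and 0.04 with quantile normalization, median scaling and normexp.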
